A study of Homo sapiens with 6 samples.

Results

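The mitochondrial ribosomal protein genes are the nuclear genes named MRPL and MRPS, for the large and the small subunit of the ribosome inside mitochondria. They were taken here as all protein-coding genes whose symbol is MRPL or MRPS followed by a number and at most 1 letter, which gave 78 genes, 49 MRPL and 29 MRPS, of 58381 gene identifiers and 19881 protein-coding genes in the deposited count table. All 78 passed the filter on low counts, so none was lost from the comparison. MOLM-13 cells were sequenced after 20 h with DB2115 at 5 µM or after the same time with the vehicle, DMSO at 0.001%, and 2 libraries per group were analysed. MOLM-13 is an established human line of acute myeloid leukaemia. It has the MLL-AF9 fusion together with a FLT3 internal tandem duplication. Both groups carry both lesions, and every result comes from this single line at 1 dose and 1 time. The labels give DB2115 only by its code name, and the title of the series concerns PU.1, a myeloid transcription factor of the ETS family encoded by SPI1. The letters of the count columns match no replicate number in the labels, and nothing in the labels ties the libraries to separate cultures. The p-values therefore measure only the spread between the libraries at hand, and that spread may be technical.

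The mitochondrial ribosome translates the few messenger RNAs encoded by mitochondrial DNA, all of them for subunits of oxidative phosphorylation. Its ribosomal RNAs are transcribed inside the organelle, whereas all of its proteins are encoded in the nucleus, made in the cytosol and imported. Some of these proteins descend from bacterial ribosomal proteins and others exist only in mitochondria. In acute myeloid leukaemia the pathway is known from work with tigecycline, an antibiotic that blocks mitochondrial translation.

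Total counts were 40067286 and 39647758 in DB2115 libraries A and B, against 36547900 and 42446253 in vehicle libraries A and B. Single counts of the 78 genes ran from 117 to 8153 per library. Levels are CPM, that is, counts scaled to library size, after TMM scaling, which takes most genes as unchanged, and a gene was called at a Benjamini-Hochberg adjusted p under 0.05 in edgeR's quasi-likelihood test over 17219 genes. Markers of cell types were summed in CPM of the total count, without TMM scaling. Of the 8 myeloid marker genes, 8 in each DB2115 library and 7 in each vehicle library reached 1 CPM. The 12 markers of other cell types summed to 291 and 306 CPM in DB2115 libraries, against 86.3 and 76.5 CPM in vehicle libraries. PECAM1, an endothelial marker that myeloid cells also carry, made up 171 and 175 CPM of these sums in DB2115 libraries, against 71.6 and 68.8 CPM in vehicle libraries. ALB, HBB, HBA1 and CD3D had no count in vehicle and at most 7 counts in a DB2115 library. The part of other cell types in the results was not tested, and in bulk RNA fewer cells of a type and less RNA per cell cannot be told apart.

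Mitochondrial ribosomal protein genes were lower in DB2115-treated cells. Of the 78 genes, 68 fell and 2 rose, MRPS6 and MRPL28, while 8 did not pass the test. Over all genes tested 64.1% were called, 31.3% lower and 32.7% higher, against 87.2% lower and 2.56% higher among the 78. The median log2 fold change of the 78 genes was -0.58, which is 1.49-fold lower, against 0.03 over all genes tested. The quartiles lay at -0.88 and -0.38, and the range ran from -2.30 for MRPL24 to 1.25 for MRPS6. Both DB2115 libraries lay below both vehicle libraries in 70 of the 78 genes, compared with 39.4% of all genes tested, and above them in 2, compared with 42% of all genes tested. Among the 9176 protein-coding genes whose vehicle level lay in the range of these genes, 43.5% were called lower and 31.3% higher, with a median of -0.11.

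Most falls were modest. Only 13 of the 78 genes were called and at least 2-fold lower, or 8 MRPL and 5 MRPS genes, against 9.53% of all genes tested. With a trend over transcript GC content and length removed, MRPL36, MRPL50, MRPL57, MRPL19, MRPS17 and MRPS30 were less than 2-fold lower. MRPS6 alone was at least 2-fold higher, against 17.5% of all genes tested. Summed over the 78 genes, their share of all counts was 0.364% and 0.341% in DB2115 libraries, against 0.524% and 0.505% in vehicle libraries. The groups did not overlap, and the mean share was 0.352 ± 0.0164% in DB2115 and 0.515 ± 0.0134% in vehicle (SD, n = 2 each). An exact two-sided permutation test gave p = 0.333, the smallest value that 2 libraries against 2 allow. The share of counts from the mitochondrial chromosome was 7.29 ± 0.508% in DB2115 and 5.27 ± 0.515% in vehicle, and the difference in the ribosomal protein share was as large when those genes were left out of the total, at -0.164 against -0.163 percentage points.

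**Figure D1:**
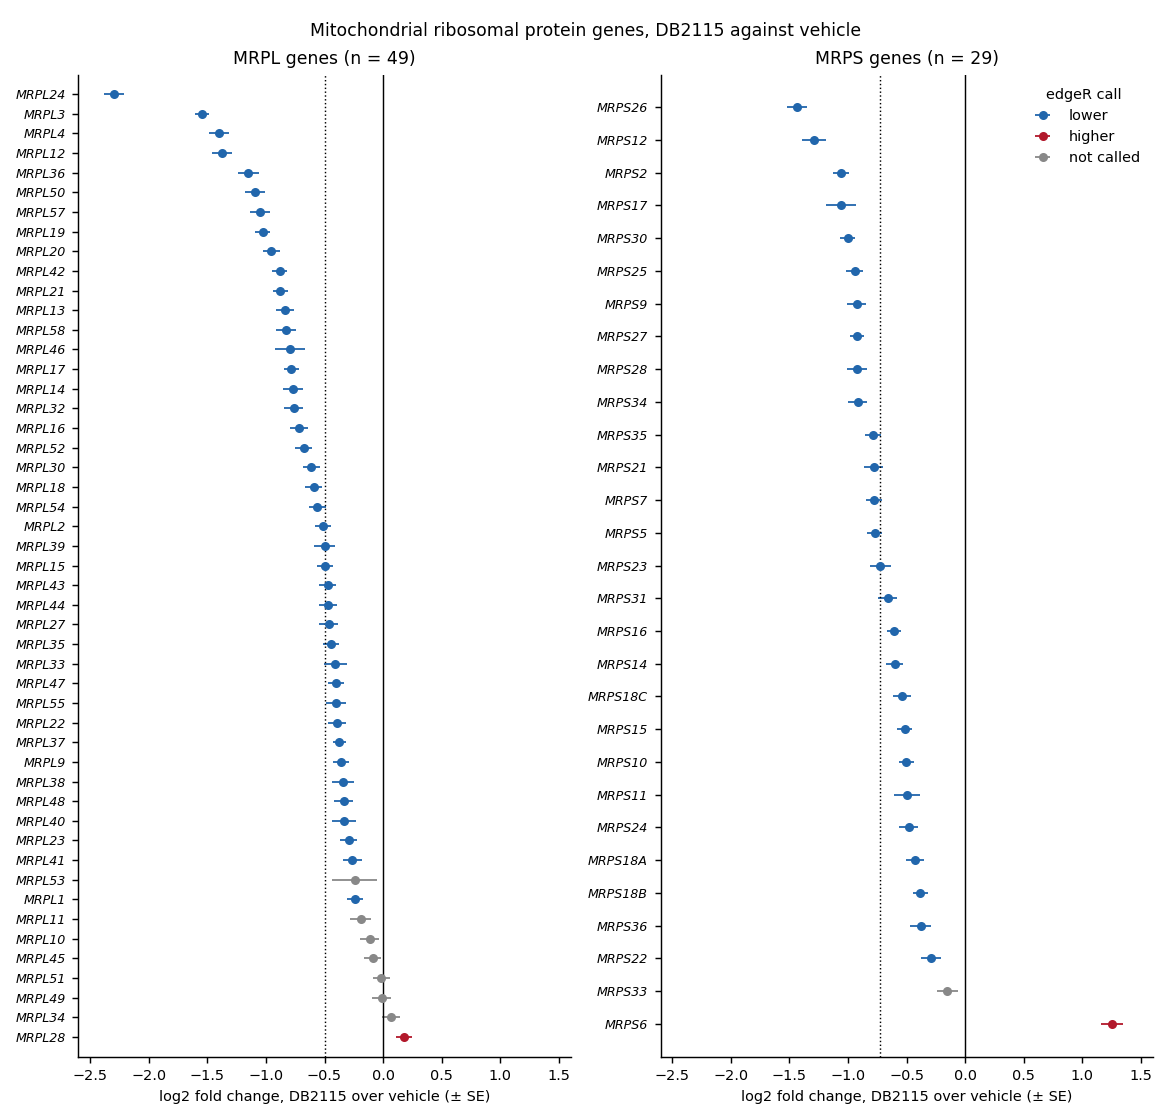
Log2 fold change of each of the 78 genes, DB2115 over vehicle, with its standard error, for 49 MRPL genes on the left and 29 MRPS genes on the right, coloured by the edgeR call; dotted lines are the medians. Nearly all points lie left of 0, MRPL24 lies farthest left at -2.30, and MRPS6 stands apart on the right at 1.25.

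MRPL and MRPS genes moved in the same direction. Of the 49 MRPL genes 41 fell and 1 rose, with a median log2 fold change of -0.50. Of the 29 MRPS genes 27 fell and 1 rose, with a median of -0.72. MRPS18A and MRPS30 are now placed in the large subunit despite their names, and MRPS36 is a subunit of the 2-oxoglutarate dehydrogenase complex and not of the ribosome. With genes sorted by their place in the ribosome, 43 of 51 large subunit genes fell, with a median of -0.50, and 24 of 26 small subunit genes fell, with a median of -0.75. The difference between the subunits was not tested. Genes with a bacterial counterpart fell in 41 of 46 cases with a median of -0.60, and mitochondria-specific genes in 26 of 31 cases with a median of -0.50.

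Among proteins of the large subunit, MRPL24 had the largest fall. MRPL24 (ENSG00000143314.12, GRCh38 chromosome 1, 156737303 to 156741590, minus strand) encodes one of the proteins that ring the tunnel's exit. It had 19.8 and 16.4 CPM in DB2115 libraries, against 92.1 and 85.9 CPM in vehicle libraries. Its log2 fold change of -2.30 (adjusted p = 2.51e-10, SE 0.09) was the lowest of the 78 genes, a 4.91-fold fall. Other proteins at or near the exit were picked as examples after their values were seen. The genes of these examples were called lower as well, with log2 fold changes of -0.78 for MRPL17, -0.76 for MRPL32, -0.40 for MRPL22, -0.40 for MRPL47 and -0.29 for MRPL23. They do not stand for all proteins on this side. MRPL45, whose protein anchors the ribosome at the inner membrane, was not called, at -0.09 with overlapping groups. Once a trend with the GC content and length of transcripts was taken out, MRPL32 stood at -0.45, MRPL22 at -0.13 and MRPL47 at 0.06, on the other side of 0, against -2.18 for MRPL24. Neither gene that flanks MRPL24 was called lower. METTL25B rose, with 34.48 and 36.55 CPM in DB2115 libraries, against 24.23 and 23.18 CPM in vehicle libraries, and HDGF was not called at a log2 fold change of -0.09 (adjusted p = 0.253).

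The other leading falls in the large subunit included proteins of its conserved core. MRPL3 (ENSG00000114686.8, chromosome 3, 131462212 to 131502983, minus strand) is the counterpart of a bacterial protein close to the site of peptide bond formation. It had 68.1 and 67.0 CPM in DB2115 libraries, against 201 and 193 CPM in vehicle libraries, a log2 fold change of -1.55 (adjusted p = 2.73e-10, SE 0.06). MRPL4 (ENSG00000105364.13, chromosome 19, 10251901 to 10260045, plus strand), whose bacterial counterpart reaches into the exit tunnel, had 82.6 and 66.8 CPM in DB2115 libraries, against 200.2 and 194 CPM in vehicle libraries. In both genes every DB2115 library lay far below every vehicle library, and the log2 fold change of MRPL4 was -1.40. Genes annotated on the strand opposite MRPL4 share exonic sequence with it and were not tested. By CPM per kilobase of transcript, averaged over all 4 libraries, MRPL4 was among the 4 highest genes, a place that rests on its vehicle level of 149, against 56.6 in DB2115. MRPL36, a small zinc-binding protein, had 19.9 and 16.7 CPM in DB2115 libraries, against 41.3 and 39.8 CPM in vehicle libraries. The mitochondria-specific MRPL50 had 12.5 and 12.3 CPM in DB2115 libraries, against 26.2 and 26.6 CPM in vehicle libraries. The log2 fold changes of MRPL36 and MRPL50 were -1.15 and -1.09, and became -0.84 and -0.70 with the GC content and length trend removed. MRPL57 and MRPL19 were at least 2-fold lower as well, at -1.05 and -1.03, or -0.95 and -0.74 with that trend removed.

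The stalk of the large subunit recruits translation factors, and its genes did not move alike. MRPL12, the stalk protein itself, had 29.4 and 24.8 CPM in DB2115 libraries, against 72.8 and 68.0 CPM in vehicle libraries. Its log2 fold change was -1.38 (adjusted p = 1.73e-08, SE 0.09). The stalk base genes MRPL10 and MRPL11 were not called, and their groups overlapped. MRPL10 had 43.0 and 40.6 CPM in DB2115 libraries, against 48.6 and 42.1 CPM in vehicle libraries, and MRPL11 had 67.9 and 60.3 CPM in DB2115 libraries, against 79.8 and 66.7 CPM in vehicle libraries. MRPL12 shares exonic sequence with another annotated protein-coding gene that was not tested, so its reads may be split between them.

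In the small subunit, MRPS26 and MRPS12 had the largest falls. MRPS26 (ENSG00000125901.5, chromosome 20, 3045945 to 3048254, plus strand), a mitochondria-specific protein, had 21.9 and 18.7 CPM in DB2115 libraries, against 57.6 and 52.2 CPM in vehicle libraries. Its log2 fold change was -1.43 (adjusted p = 1.72e-08, SE 0.09). MRPS12, the counterpart of the bacterial protein at the decoding centre, had 57.0 and 43.2 CPM in DB2115 libraries, against 123 and 121 CPM in vehicle libraries. The groups stayed apart in both genes, although the DB2115 libraries of MRPS12 (log2 fold change -1.29) differed from each other more than the vehicle libraries did. MRPS12 shares exonic sequence with SARS2 on the opposite strand, which was itself lower at -0.30 (adjusted p = 0.033). MRPS2 and MRPS17, both counterparts of bacterial proteins, were at -1.06 each.

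The 3 genes of the MRPS18 family encode related proteins that sit at different places in the ribosome. MRPS18C, the counterpart of the bacterial protein in the small subunit, had 27.0 and 25.8 CPM in DB2115 libraries, against 39.7 and 37.2 CPM in vehicle libraries. MRPS18B, also in the small subunit, had 90.3 and 85.7 CPM in DB2115 libraries, against 118 and 111 CPM in vehicle libraries. MRPS18A, in the large subunit, had 30.1 and 28.9 CPM in DB2115 libraries, against 40.8 and 38.7 CPM in vehicle libraries. All 3 fell, with log2 fold changes of -0.54, -0.38 and -0.43 for MRPS18C, MRPS18B and MRPS18A, and with the GC content and length trend removed MRPS18C stood at -0.10.

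Members with a role at odds with their name or outside translation elongation also fell. MRPS30, a protein of the large subunit, had 53.2 and 54.6 CPM in DB2115 libraries, against 106 and 110.1 CPM in vehicle libraries, a log2 fold change of -1.003 with a standard error of 0.06 (adjusted p = 1.96e-08). MRPL58, which releases stalled peptides from the ribosome as a peptidyl-tRNA hydrolase, had 19.7 and 17.9 CPM in DB2115 libraries, against 33.7 and 33.0 CPM in vehicle libraries. MRPS36 had 17.1 and 15.7 CPM in DB2115 libraries, against 21.8 and 20.9 CPM in vehicle libraries. The groups were separate in all of these genes, but the value of MRPS36, -0.38, turned to 0.17 with the GC content and length trend removed.

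Of the 4 genes with the highest mean CPM per kilobase over all libraries, MRPL4 was among the largest falls, as given above, and the others, MRPL23, MRPL18 and MRPL37, had log2 fold changes between -0.59 and -0.29. MRPL23 had 83.4 and 73.1 CPM in DB2115 libraries, against 96.2 and 95.6 CPM in vehicle libraries, and its log2 fold change of -0.29 was no longer called without vehicle library B (adjusted p = 0.0566). MRPL18, a protein of the central protuberance, had 86.4 and 78.7 CPM in DB2115 libraries, against 131 and 118 CPM in vehicle libraries. MRPL37 had 128 and 131 CPM in DB2115 libraries, against 170 and 167 CPM in vehicle libraries. In each of these genes the DB2115 libraries were the lower ones. MRPL18 was at -0.59, or -0.33 with the GC content and length trend removed, and MRPL37 at -0.37. MRPL37 shares exonic sequence with SSBP3 on the opposite strand, which had 172 and 166 CPM in DB2115 libraries, against 48.2 and 50.3 CPM in vehicle libraries. Over all 78 genes the level per kilobase ran from 2.48 to 122 CPM in DB2115 and from 2.94 to 149 CPM in vehicle, with MRPL53 lowest in both groups.

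**Figure D2:**
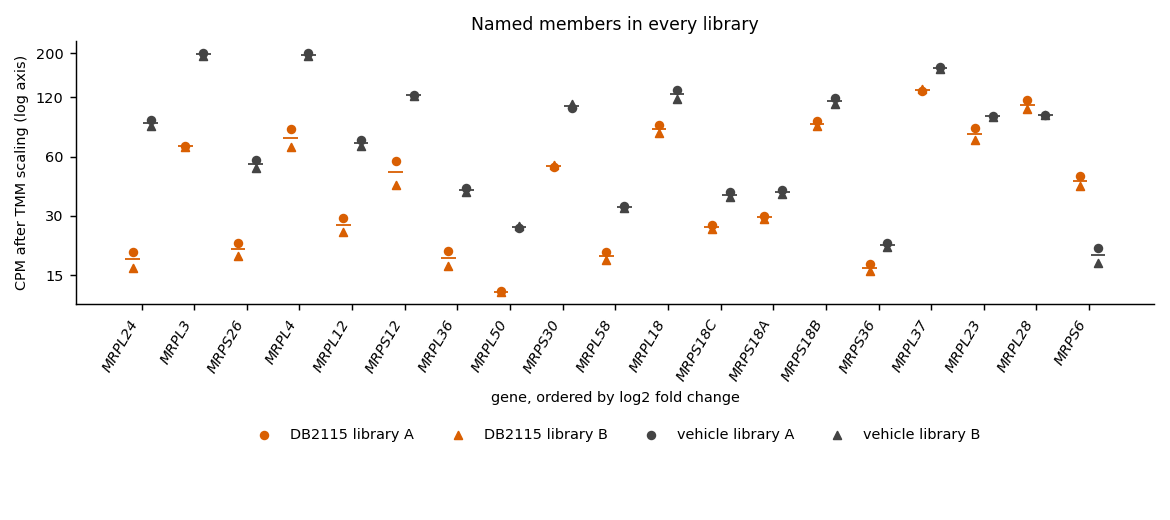
CPM after TMM scaling, on a log axis, of each named mitochondrial ribosomal protein gene in DB2115 libraries (orange, left) and vehicle libraries (grey, right), with circles for library A, triangles for library B and bars for the group means. DB2115 points lie below vehicle points in every gene shown except MRPL28 and MRPS6, at the right end.

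Both genes that rose share exonic sequence on the same strand with another gene that rose. MRPS6 (ENSG00000243927.5, chromosome 21, 34073224 to 34143034, plus strand), the counterpart of a bacterial protein of the small subunit, had 47.6 and 42.7 CPM in DB2115 libraries, against 20.7 and 17.3 CPM in vehicle libraries. Its log2 fold change was 1.25 (adjusted p = 1.26e-07, SE 0.10), and it kept its call in every alternative that gave a test. SLC5A3, a myo-inositol transporter gene that lies within MRPS6 (34073570 to 34106262, same strand), had 106 and 126 CPM in DB2115 libraries, against 19.2 and 18.7 CPM in vehicle libraries, a log2 fold change of 2.61 (adjusted p = 9.28e-11, SE 0.09). No counting rule is given in the sources used here, and reads of the shared exons cannot be assigned to either gene with certainty.

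MRPL28 (ENSG00000086504.15, chromosome 16, 366969 to 371289, minus strand), the counterpart of a bacterial protein of the large subunit, had 116 and 104 CPM in DB2115 libraries, against 97.6 and 96.8 CPM in vehicle libraries. The difference was small, with a log2 fold change of 0.18 (adjusted p = 0.0341, SE 0.07), and its call depended on single libraries. The adjusted p was 0.401 without DB2115 library A, 0.149 without vehicle library A and 0.25 without vehicle library B, and DESeq2 gave 0.109. PGAP6, which overlaps it on the same strand, had 128 and 130 CPM in DB2115 libraries, against 89.7 and 84.8 CPM in vehicle libraries. Altogether 41 of the 78 genes share exonic sequence with another annotated gene, 29 of them with one on the opposite strand. The other 37 genes showed the same direction with no rise, as 34 fell, 3 were not called and the median log2 fold change was -0.59.

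The 8 genes that did not pass the test had log2 fold changes from -0.24 to 0.07. MRPL51 had 99.5 and 92.3 CPM in DB2115 libraries, against 102 and 92.0 CPM in vehicle libraries, and MRPL49 had 44.9 and 39.7 CPM in DB2115 libraries, against 44.6 and 40.7 CPM in vehicle libraries. MRPL34 had 54.9 and 48.7 CPM in DB2115 libraries, against 49.88 and 49.04 CPM in vehicle libraries. Groups overlapped in all 3 of these genes. Each of them shares exonic sequence with a gene on the opposite strand that rose, NCAPD2 at 0.53 for MRPL51, SYVN1 at 0.38 for MRPL49 and ABHD8 at 4.26 for MRPL34. MRPL49 overlaps FAU as well, which fell, at -0.35. MRPL11, also not called, overlaps PELI3 on the opposite strand, which rose at 0.64. Such overlap was not limited to uncalled genes. MRPL2 fell, at -0.51, beside KLC4 at 1.96, and MRPS2 fell, at -1.06, beside PIERCE1 at 0.60. The part of these neighbours in the counts was not tested. MRPL45, whose protein anchors the ribosome at the inner membrane, was at -0.09 with overlapping groups. MRPL53 had the lowest counts, between 117 and 136 per library, and a standard error of 0.19 on the log2 scale, against a median of 0.08 over the 78 genes, so smaller changes were not detectable at its depth.

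Promoters of these genes were compared by the motifs they hold, because the series concerns an ETS-family factor and the genes moved together. RefSeq promoter windows on GRCh38.p14, from 250 bases before to 50 bases after a gene's start, were matched for 69 of the 78 genes. Motifs were counted on both strands. The ETS core CCGGAAG occurred in 30 of 69 genes, or 43.5%, against 22% of the protein-coding genes tested and 12.2% of all genes with a window. The YY1 motif occurred in 10 genes, or 14.5%, against 2.32% and 1.04%. The E-box CACGTG (13.0% against 12.7% of protein-coding genes tested) and the NRF1 motif (13.0% against 12.9%) occurred at similar shares in both sets. The PU.1 motif GAGGAAGT was found in 1 of the 69 genes, or 1.45%, against 3.72% of protein-coding genes tested, and the AT run AAATTT in 4.35% against 5.58%.

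The ETS core was not more frequent among the genes that fell most. It occurred in 3 of the 13 genes at least 2-fold lower and in 27 of the other 56 genes with a window. YY1 motifs occurred in 3 of the 13 and in 7 of the other 56. The windows of MRPL24 and MRPL3, the genes with the largest falls, of MRPL36, the only one of the 8 largest falls whose window held 3 kinds of motif, and of MRPS6, the largest rise, are shown as the 250 bases before the RefSeq start, 5′ to 3′ on the gene's own strand, with motif matches in capitals. They lie at chr1:156741089-156741338 (minus strand), chr3:131502972-131503221 (minus strand), chr5:1799838-1800087 (minus strand) and chr21:34073328-34073577 (plus strand) of GRCh38.p14.
MRPL24: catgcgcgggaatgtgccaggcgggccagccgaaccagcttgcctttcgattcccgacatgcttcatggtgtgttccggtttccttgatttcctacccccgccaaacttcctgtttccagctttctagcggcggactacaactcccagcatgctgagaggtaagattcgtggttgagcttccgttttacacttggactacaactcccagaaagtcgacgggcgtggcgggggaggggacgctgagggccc
MRPL3: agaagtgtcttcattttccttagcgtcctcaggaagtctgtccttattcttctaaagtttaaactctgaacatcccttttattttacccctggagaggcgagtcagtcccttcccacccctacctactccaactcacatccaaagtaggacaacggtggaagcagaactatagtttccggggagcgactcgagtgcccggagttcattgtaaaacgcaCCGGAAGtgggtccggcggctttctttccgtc
MRPL36: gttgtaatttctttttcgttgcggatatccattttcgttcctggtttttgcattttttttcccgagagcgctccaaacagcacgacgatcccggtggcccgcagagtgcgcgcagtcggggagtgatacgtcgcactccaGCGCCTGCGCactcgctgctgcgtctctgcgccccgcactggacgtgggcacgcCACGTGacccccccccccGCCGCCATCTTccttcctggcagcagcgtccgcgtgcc
MRPS6: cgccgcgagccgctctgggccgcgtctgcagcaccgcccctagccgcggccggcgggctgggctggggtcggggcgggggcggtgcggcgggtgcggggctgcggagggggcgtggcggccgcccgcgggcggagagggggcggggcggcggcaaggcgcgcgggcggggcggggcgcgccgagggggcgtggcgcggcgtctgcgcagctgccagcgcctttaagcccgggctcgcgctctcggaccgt

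The MRPL24 and MRPS6 windows held none of these exact strings before the start. The MRPL3 window held 1 ETS core, and the MRPL36 window held an NRF1 motif, an E-box and, on the opposite strand, a YY1 motif, in this order from the 5′ end. Some GENCODE transcripts start inside these windows. The MRPL24, MRPL36 and MRPS6 windows lie wholly inside the GENCODE genes, whose outer starts are further upstream. SLC5A3 starts at 34073570, inside the MRPS6 window. The MRPS6 window is 84.8% G and C, against 58.0% for MRPL24, 49.6% for MRPL3 and 62.4% for MRPL36. A match is an exact string of letters and does not show binding. Sites that differ from a string by a base, such as other forms of an ETS site, were not counted.

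Some of these genes start back to back with another gene. Of the 78 genes 29 have a gene on the opposite strand whose start lies within 1000 bases, and for 26 of them that neighbour was tested and is not itself one of the 78. Of these 26 neighbours 11 fell, 6 rose and 9 were not called, with a median log2 fold change of -0.13. The neighbours' 42.3% lower lay near the 36.8% of all protein-coding genes tested, and their 23.1% higher stood beside 35.5%. Neighbour and member had the same sign in 15 of 26 pairs. Every member in these pairs was below 0, so this only counts the neighbours below 0. Among all protein-coding genes tested, 6568 of 13023 were below 0. Starts in these pairs are the outer ends of the GENCODE genes. By this measure MRPL36 starts 34 bases from NDUFS6, a complex I subunit gene. NDUFS6 had 98.2 and 94.9 CPM in DB2115 libraries, against 162 and 151 CPM in vehicle libraries. That MRPL36 start, at 1801366 on chromosome 5, is not the one used for its promoter window. The window, at 1799838 to 1800087, lies before a RefSeq start inside the gene. MRPL43 starts 148 bases from TWNK, the helicase of mitochondrial DNA, which had 15.7 and 13.7 CPM in DB2115 libraries, against 75.9 and 77.2 CPM in vehicle libraries. In both pairs each gene was called lower, although MRPL43 fell by only 0.47 on the log2 scale, whereas TWNK was at -2.38 (adjusted p = 7.33e-11, SE 0.08). MRPL43 and TWNK also share exonic sequence on opposite strands, and the part of shared reads in either value was not tested. MRPL18 starts 63 bases from TCP1, a cytosolic chaperonin subunit, and both fell. Other pairs moved apart: MRPL52 was lower at -0.68, while SLC7A7, an amino acid transporter gene 59 bases away, had 45.1 and 44.7 CPM in DB2115 libraries, against 11.6 and 11.1 CPM in vehicle libraries. The only head-to-head pair within the 78 genes, MRPL46 and MRPS11 with starts 34 bases apart, fell at both ends, by 0.79 and 0.50 on the log2 scale.

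**Figure D3:**
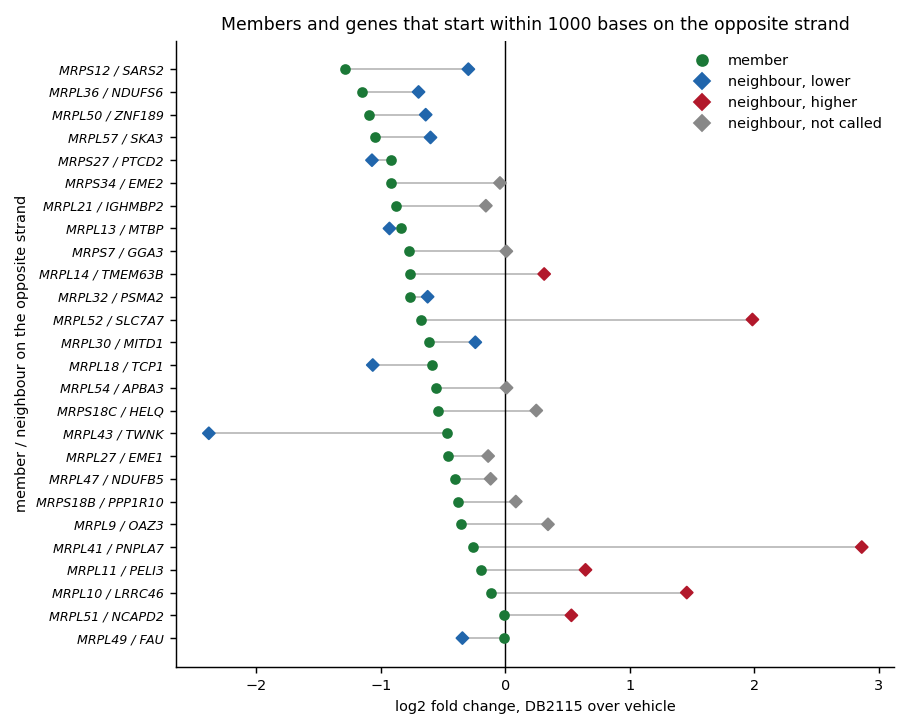
Log2 fold change, DB2115 over vehicle, of 26 mitochondrial ribosomal protein genes (circles) and of the gene that starts within 1000 bases on the opposite strand (diamonds, coloured by call), joined by a line. Diamonds lie on both sides of 0, from TWNK at -2.38 to PNPLA7 at 2.86, while no circle lies to the right of it.

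Genes for the remaining proteins of the same ribosome fell as well. Of 5 subunit genes with other symbols 4 fell. DAP3, a GTP-binding protein of the small subunit, had 100.5 and 95.1 CPM in DB2115 libraries, against 171 and 168 CPM in vehicle libraries, a log2 fold change of -0.80. GADD45GIP1, in the large subunit near the tunnel exit, was at -0.79, CHCHD1 at -0.58 (-0.26 with the GC content and length trend removed) and AURKAIP1 at -0.42, both in the small subunit. PTCD3, also in the small subunit, had 72.1 and 71.3 CPM in DB2115 libraries, against 79.7 and 79.1 CPM in vehicle libraries. Its groups did not overlap, but its log2 fold change of -0.15 had an adjusted p of 0.0529, and it passed the test with limma-voom (adjusted p = 0.0477).

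Assembly and translation factors of mitochondria showed the same direction with some larger falls. Of 28 genes for assembly and ribosomal RNA modification 23 fell and 1 rose, with a median log2 fold change of -0.64. MRM1, which methylates the 16S ribosomal RNA, averaged 4.30 ± 0.826 CPM in DB2115 and 23.3 ± 0.947 CPM in vehicle (SD, n = 2 each). TFB1M, which methylates the 12S ribosomal RNA, had 11.4 and 10.0 CPM in DB2115 libraries, against 38.3 and 35.2 CPM in vehicle libraries. C1QBP, a matrix protein needed for mitochondrial translation, had 169 CPM in each DB2115 library, against 501 and 478 CPM in vehicle libraries. These falls of -2.44, -1.78 and -1.54 on the log2 scale were as large as the leading falls among the ribosomal proteins. YBEY, an endoribonuclease, was the gene that rose, at 0.74. Of 17 translation factors and RNA-binding proteins 15 fell and none rose, with a median of -0.65. SLIRP, which stabilises mitochondrial messenger RNAs, was at -1.32, GUF1, a back-translocating elongation factor, at -1.16, and GFM1, the elongation factor that moves the ribosome along, at -1.10.

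**Figure D4:**
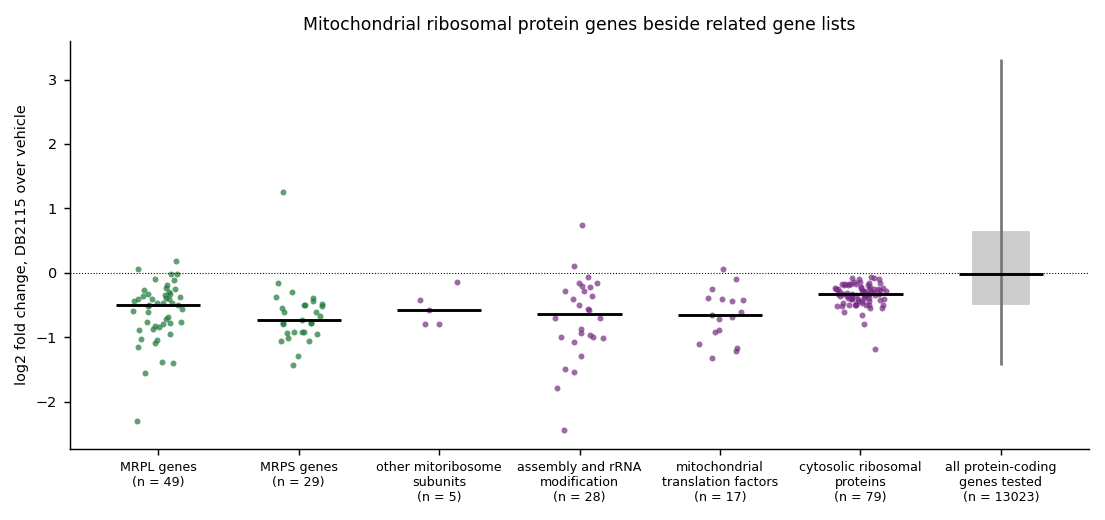
Log2 fold change, DB2115 over vehicle, of single genes (points) with the median of each list (bar), for MRPL and MRPS genes, 4 related lists and all protein-coding genes tested, where the grey box spans the quartiles and the line the 5th to 95th percentiles. Medians of the mitochondrial lists lie between -0.50 and -0.72, that of the cytosolic ribosomal proteins at -0.33 and that of all protein-coding genes tested at -0.01.

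Cytosolic ribosomal protein genes fell in 67 of 79 cases, and none rose, with a median log2 fold change of -0.33. With the GC content and length trend removed, that median was -0.13 and 20 of the 79 values were above 0, against a median of -0.41 for the 78 mitochondrial genes, of which 5 called falls and 3 uncalled genes turned positive. Only RPS26, at -1.18, was at least 2-fold lower, with 152 and 121 CPM in DB2115 libraries, against 321 and 297 CPM in vehicle libraries. RPL35 and RPL17 followed at -0.61 and -0.55, the value of RPL17 being -0.29 with the trend removed. Quartiles ran from -0.43 to -0.24 in this list. The difference between the lists was not tested.

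The ribosomal RNAs of mitochondria moved the other way. MT-RNR1, the 12S ribosomal RNA of the small subunit, had 17627 and 16267 CPM in DB2115 libraries, against 406 and 407 CPM in vehicle libraries, a log2 fold change of 5.38 (adjusted p = 5.35e-13, SE 0.09). MT-RNR2, the 16S ribosomal RNA of the large subunit, had 21969 and 20126 CPM in DB2115 libraries, against 4623 and 5196 CPM in vehicle libraries, a log2 fold change of 2.10 (adjusted p = 5.12e-10, SE 0.09). MT-TV, the valine transfer RNA that lies between them and takes a structural place in the human mitochondrial ribosome, had 1182 and 1782 counts in DB2115 libraries, against 0 and 3 counts in vehicle libraries. All 3 RNAs were higher in both DB2115 libraries than in either vehicle library. The sources used here do not give how messenger RNA was selected before sequencing, so these counts are given as values of the libraries only. Leaving out the genes of the mitochondrial chromosome changed neither the 68 falls nor the 2 rises.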

How the data were processed

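The authors deposited raw counts of reads for each gene, without normalisation, in 3 columns per group. Per the submitters' processing notes, the tools were STAR, FastQC and DESeq2 and the build hg38. Annotation, strandedness and counting rule are not stated in the sources used here. The third column of each group equalled the sum of the others within 1% for all 78 genes, so these 2 columns were left out. Sample titles number 3 replicates per group, and which of them the analysed columns hold is not known. Symbols and coordinates came from GENCODE release 29. Counts were fitted with edgeR 4.0.16 in R 4.3.3 (TMM, filterByExpr with minimum count 10 and minimum total 15, glmQLFit and glmQLFTest, treatment as the only term) over 17219 genes, with Benjamini-Hochberg adjustment. Standard errors were computed as the size of the log2 fold change over the root of its F statistic. The common biological coefficient of variation was 6.33%, and 3 counts in a library are 0.0707 to 0.0821 CPM. The fit was tested on simulated data. Alternatives used DESeq2 1.42.0, limma 3.58.1 and other scalings, filters and libraries. In 1 alternative a loess trend (span 0.3) over GC content and transcript length was subtracted.

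Named genes were the 8 largest falls and up to 8 rises that were called with groups that do not overlap, the 4 highest levels per kilobase, 8 genes with a role outside or at odds with their name, and, from other lists, up to 3 genes with the smallest adjusted p or every gene of lists of at most 5. Further genes were named after their values were seen, as neighbours, exit or stalk proteins or examples. The genes and lists were chosen with earlier results of these data known. Pseudogenes annotated for 36 of the 78 genes held 0.145% of their counts in all and over 1% in 3 genes, MRPS31 (17.0%), MRPS18A (2.05%) and MRPL53 (1.01%).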

Additional observations from a re-analysis of the deposited data

How the results depend on the processing

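The direction of the 78 genes as a group held in every alternative run, while the sizes moved. Their median log2 fold change of -0.58 (MRPL -0.50, MRPS -0.72) became -0.48 (MRPL -0.40) with upper-quartile factors or with total counts alone, -0.49 (MRPL -0.42) with at least 1 CPM in 3 libraries, and -0.41 (MRPL -0.38, MRPS -0.52) with the GC content and length trend removed. That last alternative turned 5 called falls positive, MRPS36 to 0.17, MRPL1 to 0.19, MRPL47 to 0.06, MRPL33 to 0.06 and MRPS22 to 0.05, and 3 genes that were not called, MRPS33, MRPL45 and MRPL51. Genes called lower numbered 64 and 65 under upper-quartile factors and total counts, 67 with DESeq2 and 65 at an adjusted p under 0.01. With all 6 columns 72 were called lower. There the third column of each group repeats the reads of the others, so the replication is overstated. Only 1 gene, MRPS6, and 0 MRPL genes were called higher with no filter, DESeq2, an adjusted p under 0.01 or pseudogene counts added, since MRPL28 lost its call. Leaving out each library in turn gave 64 to 70 genes lower (MRPL 38 to 42, MRPS 26 to 28), 1 to 2 higher (MRPL 0 to 1), medians of -0.66 to -0.52 (MRPL -0.58 to -0.45, MRPS -0.81 to -0.62) and a difference in share of -0.174 to -0.151 percentage points; with a library left out, the lone one is assumed to vary like the other group. A replicate block on the column letters gave 69 lower and 2 higher. The deviations of the A columns correlated at 0.03. Among the 78 genes, however, library B lay below library A in 72 in DB2115 and in 69 in vehicle. Whether the letters pair the libraries is therefore not known. Calls of MRPL1, MRPL23, MRPL38, MRPL40, MRPL41, MRPS11 and MRPS22 were lost in at least 1 alternative, and the sign changed only in MRPL34, MRPL45, MRPL49 and MRPL51 among the refits, none of which was called. PTCD3 was called with limma-voom, the block, added pseudogene counts and all 6 columns, the last of which counts the same reads again.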

Other observations

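Across the 78 genes, the log2 fold change varied weakly with the level in vehicle, with a Pearson r of -0.31 and a Spearman rho of -0.28, and the level enters both measures. Transcript length (r = -0.03) and GC content (r = -0.01) showed no such relation within these genes. These are descriptions over genes of the same 4 libraries, which are not independent replicates. Library B lay below library A in 72 of the 78 genes in DB2115 and in 69 of the 78 genes in vehicle. Over the 26 pairs of a mitochondrial ribosomal protein gene and its opposite-strand neighbour, the log2 fold changes had a Pearson r of 0.39 and a Spearman rho of 0.54. Some of these pairs, such as MRPL13 with MTBP and MRPL43 with TWNK, share exonic sequence. Strandedness is not stated, and the part of shared reads in these correlations was not tested.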
